A study of Arabidopsis thaliana with 8 samples.

Results

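A second round of in vitro transcription (IVT) was compared with a single round by the difference that each gave between early and late siliques, the seed pods of Arabidopsis. The comparison used 4 of the 8 hybridizations of the study, chosen by their labels: 2 made after 1 round of IVT from 5 µg of total RNA (IVT) and 2 made after 2 rounds from 50 ng (2IVT). It was made on the 21988 of 26912 long oligonucleotide probes that had a value on all 4 slides. The other regimes, unamplified RNA (30 µg) and PCR (50 ng, 20 cycles), had 2 hybridizations each. Their slides entered the fit that set the spread for the tests, and their ratios are given below beside those of IVT and 2IVT.

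Every slide set siliques of 2 to 5 DAP (days after pollination, the early sample) against siliques of 6 to 10 DAP to which early material was added, so that the late sample was 90% late and 10% early (90%-late). Both samples were whole siliques, and the same pair of RNA samples went into every regime. The methods give the added share by fresh weight and the results text gives it by RNA. Within each amplified regime, 1 amplification of 90%-late RNA was hybridized against 2 independent amplifications of early RNA. The n of 2 therefore measures the spread between early amplifications and slides, and anything particular to the single 90%-late preparation is on both slides of its regime. Rounds, input amount, 90%-late preparation and the slides used all differ between IVT and 2IVT and cannot be told apart. The early target was labelled with Cy5 on every slide and the 90%-late target with Cy3, so stage and dye cannot be told apart either.

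In IVT amplification, RNA is copied to cDNA from a primer that carries a promoter of T7 RNA polymerase, and the polymerase then transcribes many copies of antisense RNA. In a second round the antisense RNA is copied to cDNA again, usually with random primers, and transcribed once more. During the days sampled here the seed passes from a growing endosperm and a young embryo to an embryo that starts to fill with storage protein and oil, while the pod wall expands and stays green. Seed storage proteins, oleosins of the oil bodies and late embryogenesis abundant (LEA) proteins are the usual marks of the later phase.

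The values are log2 ratios of the 2 channels. The sign was turned here, so that a positive ratio is higher in 90%-late siliques, the reverse of the deposited direction. That direction is likely rather than stated: it rests on the dyes and on the design, in which the late side alone can show the full range of differences. The seed maturation genes described below have the sign that this direction gives. In a ratio between the stages, a different share of a tissue and a different amount of RNA per cell cannot be told apart; both are the same in every regime, since the RNA was the same. A difference between the regimes is the 2IVT mean minus the IVT mean, on the same log2 scale.

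After the second round most stage differences kept their direction and became smaller. By the test alone, with no limit on fold, 5154 probes were higher in 90%-late after IVT (23.4%) and 7213 in early siliques (32.8%), against 4599 (20.9%) and 5783 (26.3%) for 2IVT. IVT gave 2037 probes that passed the test and were 2-fold or more higher in 90%-late (9.26% of probes tested) and 1861 that were 2-fold or more higher in early siliques (8.46%), against 1522 (6.92%) and 1236 (5.62%) after 2IVT. Of the 2037 late probes of IVT, 1340 (65.8%) were 2-fold late and passed the test after 2IVT too, 390 lay between 1.5-fold and 2-fold and 306 (15.0%) were under 1.5-fold. Of the 1861 early probes, 882 (47.4%) were again 2-fold early, 517 lay between 1.5-fold and 2-fold and 460 (24.7%) were under 1.5-fold. The sign was the same for 98.4% of the late and 96.5% of the early probes, and only 1 and 2 of them reached 1.5-fold on the opposite side. Read in the other direction, 88.0% of the 1522 late probes and 71.4% of the 1236 early probes of 2IVT were 2-fold in IVT. These shares come from probes chosen on the values of 1 regime, and are a description of that choice.

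A slope that does not carry this choice was taken from covariances between separate slides. The 2IVT ratio was 0.684 ± 0.0237 of the IVT ratio (SD over the 2 slides of 2IVT, n = 2), and it was 0.701 and 0.667 on the single slides. Probes chosen on 1 IVT slide and measured on the other kept 70.7% of the IVT ratio at 2-fold to 4-fold late (67.7% to 73.7% over the slide pairs) and 64.4% at 16-fold to 64-fold late (60.5% to 68.2%). On the early side they kept 71.1% at 2-fold to 4-fold (69.0% to 73.3%) and 79.3% at 4-fold to 8-fold (76.9% to 82.1%). The smaller ratio was thus present in both directions and in each bin, and no test was run between bins. The upper end of the range showed it as well: the 99.9th percentile was 5.45 and 5.50 on the IVT slides and 3.65 and 3.93 on the 2IVT slides, while the 0.1th percentile was -2.54 and -2.61 for IVT against -2.67 and -2.32 for 2IVT.

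**Figure D1:**
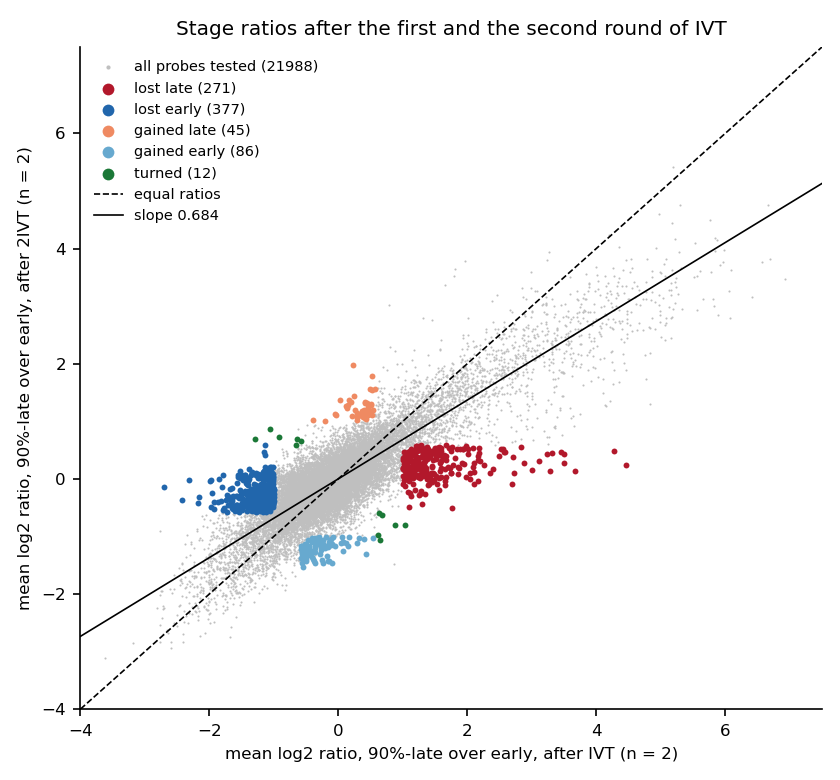
Mean log2 ratio of 90%-late over early siliques after 2IVT (vertical axis) against that after IVT (horizontal axis), n = 2 slides each, for 21988 probes; colours mark probes whose stage difference was lost, gained or turned. The solid line has the slope of 0.684 and the dashed line marks equal ratios. Near 0 the lines meet and probes there cannot be assigned to either. The coloured probes are the edges of the cloud, since they were chosen on these values.

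The 2 slides agreed less well after the second round. The correlation between replicate slides was 0.972 for IVT and 0.888 for 2IVT across probes, which are not independent replicates, and the SD between slides was 0.161 and 0.254. The means of the regimes correlated at 0.868. Another 448 probes had values on both IVT slides and on neither 2IVT slide, of which 21 were 2-fold late and 23 were 2-fold early in IVT, and 42 probes had values only after 2IVT. Few 2-fold stage differences of IVT were thus at probes without any 2IVT value. Probes with a value on a single slide of 2IVT are not in these counts. Intensities were not used, so whether a probe with a 2IVT ratio near 0 still gave signal, or was saturated in both channels, is unknown.

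The difference between 2IVT and IVT passed the test for 3142 of 21988 probes (14.3%; limma, all 8 hybridizations in a single fit, Benjamini-Hochberg adjusted p under 0.05), 1553 towards late (7.06%) and 1589 towards early (7.23%). The count moved with the slides: it was 1247 without IVT replicate 1, 922 without IVT replicate 2, 1532 without 2IVT replicate 1 and 4649 without 2IVT replicate 2. An exact permutation test of 2 slides against 2 cannot give a p below 0.333, so the calls depend on the spread that limma shares across probes and regimes. The fit assumed the same spread in every regime, and with weights by regime it called 3063 probes.

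Stage differences were called lost where IVT gave 2-fold or more and passed the test, 2IVT gave less than 1.5-fold, and the difference between them passed. A lost difference could still pass the test after 2IVT, as for AT2G22510 (mean 0.47, limma adjusted p = 0.0154) and UGT84B1 (mean 0.37, limma adjusted p = 0.0175). Gained is the mirror of the rule for lost. By these rules 271 probes lost a late difference (1.23% of probes tested), 377 lost an early one (1.71%), 45 gained a late one (0.205%) and 86 gained an early one (0.391%). Without 1 slide or another the counts ranged from 166 to 300, 172 to 452, 17 to 161 and 20 to 265. A further 6 turned from late to early (0.0273%) and 6 from early to late (0.0273%), with at least 1.5-fold on each side. Another 1340 late (6.09%) and 882 early (4.01%) probes were kept, which means 2-fold and called in both regimes in the same direction. The probes were chosen by these values, so the values that follow are a description and carry no test of their own; the mean ratios in the unamplified and PCR regimes did not enter the choice, although the spread of those slides did, through the shared fit. With the 4 hybridizations of IVT and 2IVT alone, 231 of the 271 lost late, 273 of the 377 lost early, 36 of the 45 gained late and 48 of the 86 gained early probes met the rules again. On both 2IVT slides 23 of the lost late (8.49%) and 34 of the lost early probes (9.02%) lay within 0.1 of 0, beside 6.52% of all probes. The rule for a loss favours such probes, so the share of all probes is no like reference.

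Among the 271 lost late probes, 153 had a gene symbol, of which 28 were gene names and 125 were locus numbers only. The largest loss was in AT2G22510, with log2 ratios of 3.96 and 4.58 on the IVT slides and 0.45 and 0.50 on the 2IVT slides, a difference of -3.80. AT2G18480 gave 3.59 and 3.76 after IVT and 0.14 and 0.12 after 2IVT. In both genes a strong late difference became one of less than 1.5-fold, and the IVT slides of AT2G22510 differed more (SD 0.44) than those of AT2G18480 (SD 0.12). Both loci are without a described role in the sources used here.

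AT1G72100, a LEA gene, had ratios of 3.31 and 3.68 after IVT against 0.08 and 0.46 after 2IVT, with 1.47 and 2.02 unamplified. AT5G38160, which encodes a protein of the protease inhibitor, seed storage and lipid transfer family, had 2.30 and 4.69 after IVT and 0.37 and 0.48 after 2IVT. Its IVT slides lay far apart, although both were above both 2IVT slides. Unamplified RNA gave 4.30 and 4.45 for it. AT1G62080 had the strongest unamplified ratio of the named losses, 8.79 and 8.37, then 3.53 and 3.10 after IVT and 0.72 and 0.18 after 2IVT, so that its ratio was lower in each successive regime.

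A pair of the named losses had small ratios in unamplified RNA. AT5G61610 gave 3.12 and 2.87 after IVT, 0.19 and 0.11 after 2IVT, with 0.20 and 0.66 unamplified. The defensin PDF1.2, one of a family of small secreted antifungal proteins, gave 2.63 and 3.13 after IVT, 0.00 and 0.55 after 2IVT, with 0.28 and 0.38 unamplified. Both unamplified slides of these 2 genes were far below both IVT slides. UGT84B1, a glucosyltransferase that acts on auxin, gave 2.76 and 2.66 after IVT, 0.22 and 0.52 after 2IVT, with 1.93 and 1.87 unamplified.

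**Figure D2:**
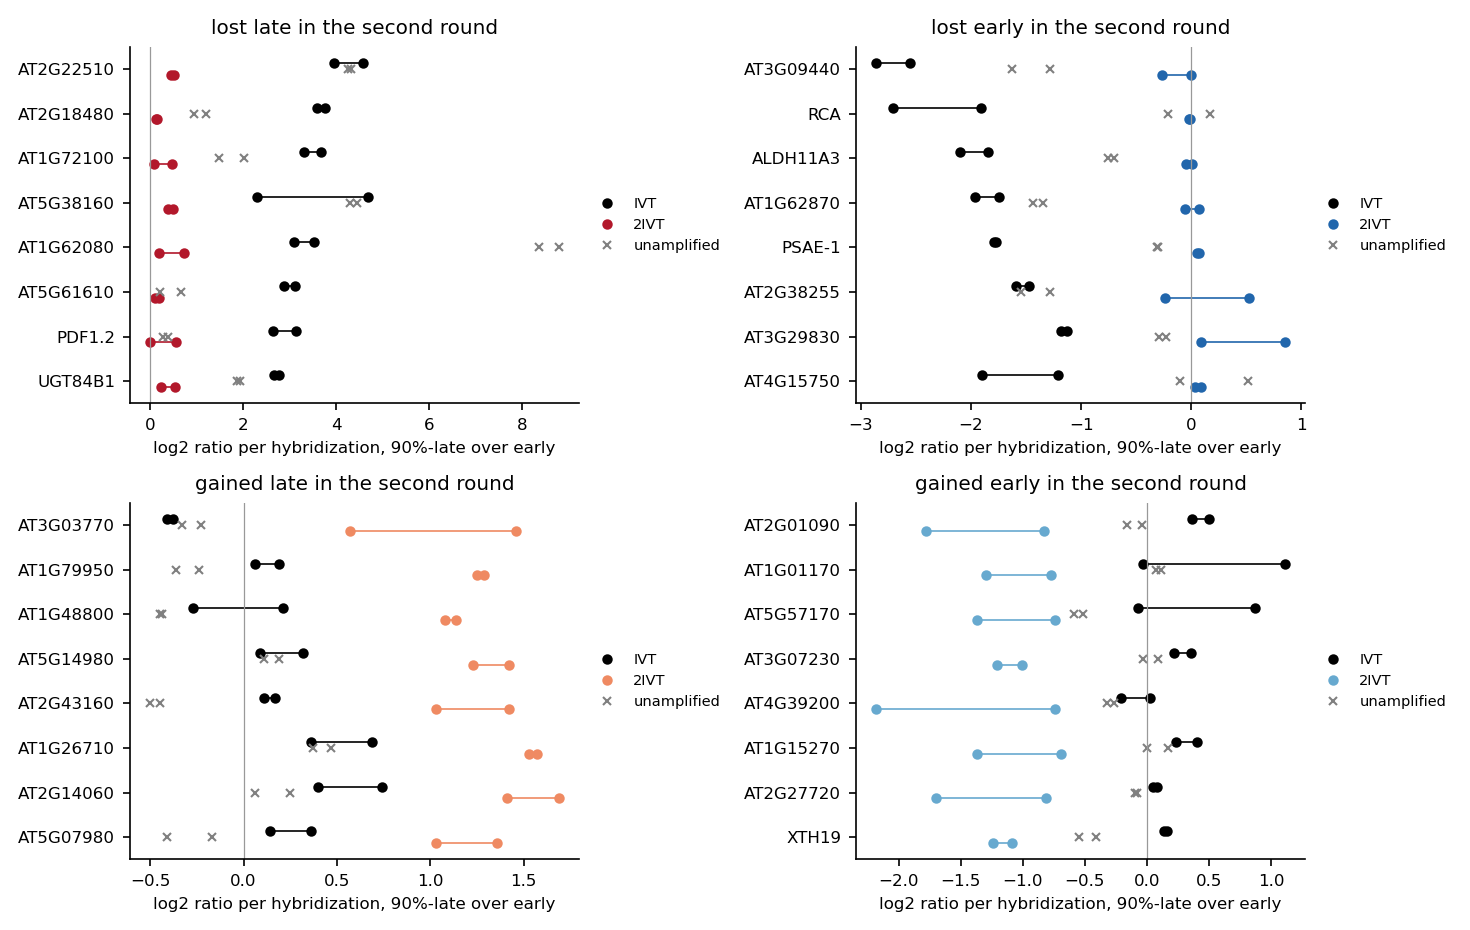
Log2 ratio of 90%-late over early siliques on each slide (horizontal axes) for the 8 named genes with the largest difference in each class: black points are the IVT slides, coloured points the 2IVT slides, and crosses the unamplified slides. In each of these genes the 2 slides of IVT lie apart from the 2 slides of 2IVT, as the choice of genes makes likely, while the crosses lie near IVT for AT2G22510 and near 2IVT for PDF1.2 and RCA.

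Further lost late genes with a gene name were picked for description after their values were seen. PORB, a light-dependent enzyme of chlorophyll synthesis, had ratios of 2.58 and 2.53 after IVT and 0.86 and 0.17 after 2IVT, with 3.15 and 3.05 unamplified. The sucrose transporter SWEET11 gave 1.81 and 2.52, then 0.45 and 0.19, and 4.13 and 3.82 unamplified. HIS1-3, a linker histone, gave a mean of 1.19 ± 0.08 (SD, n = 2) after IVT, then -0.03 and 0.37, and 1.51 and 1.36 unamplified. In these 3 genes, as in the lipocalin TIL (1.32 and 1.20, then 0.07 and 0.05, and 1.57 and 1.49 unamplified) and the ATP sulfurylase APS4 (1.54 and 1.35, then 0.00 and 0.22, and 1.53 and 1.33 unamplified), both unamplified slides were above both 2IVT slides. XTH20, a xyloglucan endotransglucosylase of the cell wall, went the other way: it gave 1.45 and 1.40 after IVT, 0.37 and 0.42 after 2IVT, with 0.07 and -0.05 unamplified.

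Of the 377 lost early probes, 182 had a symbol, 32 of them a gene name. The largest loss was in AT3G09440, at -2.86 and -2.55 after IVT, 0.00 and -0.27 after 2IVT, with -1.63 and -1.28 unamplified. RCA, the activase of Rubisco, gave -1.91 and -2.71 after IVT, -0.01 and -0.02 after 2IVT, with -0.21 and 0.17 unamplified. PSAE-1, a subunit of photosystem I, gave -1.79 and -1.77, then 0.07 and 0.05, and -0.30 and -0.31 unamplified. ALDH11A3, a glyceraldehyde-3-phosphate dehydrogenase of the cytosol, gave -1.85 and -2.10, then -0.05 and 0.01, and -0.70 and -0.76 unamplified. All 3 were clearly early after a single round, were at or near 0 after 2 rounds, and were under 2-fold in unamplified RNA.

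The remaining named losses on the early side were AT1G62870 (-1.75 and -1.96 after IVT, -0.06 and 0.07 after 2IVT), AT2G38255 (-1.47 and -1.59, then 0.52 and -0.24), AT3G29830 (-1.13 and -1.18, then 0.85 and 0.09) and AT4G15750 (-1.21 and -1.90, then 0.09 and 0.03). The 2IVT slides of AT2G38255 and AT3G29830 lay far apart. AT1G62870 and AT2G38255 had unamplified ratios of -1.35 to -1.44 and -1.28 to -1.55, so that the early difference of the single round was also there without amplification, whereas AT3G29830 and AT4G15750 were between -0.29 and 0.51.

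Early genes with a gene name, again picked after their values were seen, included ACT11, an actin of reproductive tissue, at -1.56 and -1.72 after IVT, -0.15 and -0.89 after 2IVT, with -1.62 and -1.71 unamplified. CCS, the copper chaperone of superoxide dismutase, gave -1.12 and -1.19, then -0.06 and 0.03, and -0.73 and -0.97 unamplified. The subtilase SBT1.3 gave -1.24 and -1.11, then -0.01 and -0.09, and -1.08 and -1.04 unamplified. UGT78D2, a flavonoid glucosyltransferase, gave -1.10 and -0.93, then -0.27 and -0.39, and a mean of -1.03 unamplified. For these 4 genes the unamplified slides lay closer to the IVT slides than to the 2IVT slides. Most lost early probes lay nearer to 2IVT, as counted below, and AVA-P1, a subunit of the vacuolar proton pump, was one of them, with -1.17 and -0.92, then -0.22 and -0.62, and 0.00 and 0.07 unamplified.

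By the rules as set, gains were fewer and smaller than losses. The order of the counts depended on the scaling. With IVT ratios multiplied by the overall slope, 89 probes gained and 78 lost a late difference, and 141 gained and 33 lost an early one. Of the 45 gained late probes 29 had a symbol and 4 a gene name. AT3G03770 showed the largest gain, from -0.38 and -0.41 after IVT to 1.46 and 0.57 after 2IVT, with -0.33 and -0.23 unamplified. AT1G79950 went from 0.19 and 0.06 to a mean of 1.27 ± 0.03 (SD, n = 2), with -0.36 and -0.24 unamplified, and AT5G14980 from 0.32 and 0.09 to 1.23 and 1.42, with 0.11 and 0.19 unamplified. AT1G26710 gave 0.36 and 0.69, then 1.57 and 1.53. None of these 4 was 1.5-fold late in unamplified RNA. AT1G48800, AT2G43160, AT2G14060 and AT5G07980 had 2IVT ratios of 1.03 to 1.69 and unamplified ratios of -0.50 to 0.25. The difference of AT2G43160 was not called without IVT replicate 2 (1.05), that of AT2G14060 without IVT replicate 1 (0.81), and that of AT5G07980 without any 1 of the 4 slides (0.78 to 1.11). The gene-named gains were ACLA-3 (a subunit of ATP citrate lyase), DLAH, ATA27 and the receptor-like kinase BIK1, which gave 0.37 and 0.38 after IVT, 1.05 and 1.10 after 2IVT, with 0.50 and 0.69 unamplified.

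Of the 86 gained early probes 57 had a symbol and 3 a gene name. AT2G01090 went from 0.50 and 0.36 after IVT to -1.78 and -0.83 after 2IVT, with -0.04 and -0.16 unamplified. XTH19, a wall enzyme of the same family as XTH20, went from 0.16 and 0.14 to -1.09 and -1.24, with -0.41 and -0.55 unamplified. NRPB12, a small subunit of RNA polymerases, went from -0.36 and -0.18 to -1.49 and -0.97, and CYTC6A, a cytochrome of the chloroplast, from -0.58 and -0.56 to -1.43 and -1.18.

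The other named early gains were AT3G07230, AT1G15270, AT2G27720, AT4G39200, AT1G01170 and AT5G57170, with 2IVT means on the early side and IVT means near or above 0. On 2IVT replicate 1 they ranged from -1.21 to -2.18 and on replicate 2 from -0.69 to -1.01, so the first slide was further from 0 in every one. The same held for the class: the median of the 86 probes was -1.40 on 2IVT replicate 1 and -0.96 on replicate 2, and 23 probes met the rule without replicate 1 against 265 without replicate 2. Leaving out 2IVT replicate 1 ended the call of a difference for AT1G01170 (-1.30 without it), AT5G57170 (-1.14) and AT4G39200 (-0.64), and so did leaving out IVT replicate 2 (-1.0, -0.98 and -1.48). For AT4G39200 it also ended without IVT replicate 1 (-1.24). The gained late probes had medians of 1.24 and 1.16 on the same slides, the lost late probes 0.23 and 0.30, and the lost early probes -0.20 and -0.36.

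In unamplified RNA the lost probes were 2-fold in their direction less often than the kept probes, and few gained probes were 2-fold. No test was run between classes. Kept probes also had larger IVT ratios than lost probes, with medians of 2.2 against 1.33 (late) and -1.5 against -1.19 (early). The shares of lost and kept probes, here and after PCR, are therefore not compared at an equal starting ratio. Of the 266 lost late probes with unamplified values, 110 (41.4%) were 2-fold late there and 93 (35.0%) were under 1.5-fold, with a median of 0.85. Kept late probes had a median of 1.43, and 65.6% of 1324 were 2-fold late, against 6.53% of all 21649 probes with values. Of the 376 lost early probes, 60 (16.0%) were 2-fold early and 198 (52.7%) were under 1.5-fold, with a median of -0.56. Kept early probes had a median of -1.09 and 58.0% were 2-fold early, against 4.49% of all probes. Only 1 of 44 gained late probes (2.27%) and 3 of 86 gained early probes (3.49%) were 2-fold in the same direction in unamplified RNA, beside 6.53% and 4.49% of all probes. Their medians were 0.15 and -0.44, and the gained early probes were early in unamplified RNA for 86.0%, against 92.6% of the lost early probes and 56.6% of all probes.

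The unamplified ratio was nearer to the IVT mean than to the 2IVT mean for 140 of the 266 lost late probes (52.6%), 129 of the 376 lost early probes (34.3%), 41 of the 44 gained late probes (93.2%) and 76 of the 86 gained early probes (88.4%), beside 51.0% of all probes. The rule itself bears on these shares: a probe with an unamplified ratio near 0 lies nearer to whichever regime gave the small ratio, which is IVT for gained and 2IVT for lost probes, so the share of all probes is no reference for them. After PCR, 15.4% of the lost late, 22.1% of the kept late and 2.51% of all probes were 2-fold late, and 2.96% of the lost early, 10.1% of the kept early and 1.11% of all probes were 2-fold early. No gained probe was 2-fold in its direction after PCR.

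**Figure D3:**
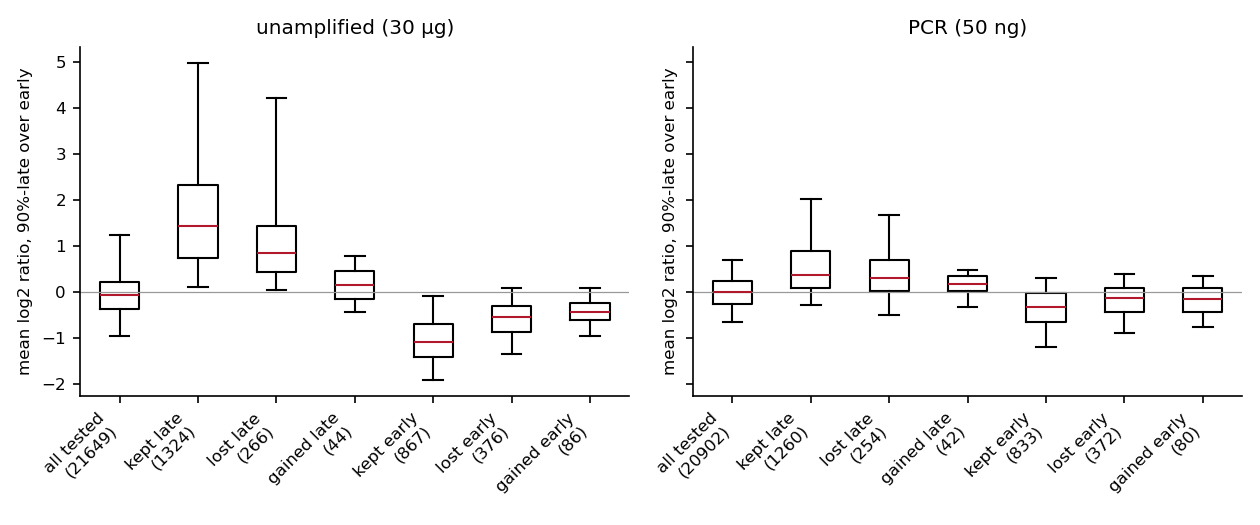
Mean log2 ratio of 90%-late over early siliques in unamplified RNA (left) and after PCR (right) for each class; boxes are quartiles with the median in red, whiskers run from the 5th to the 95th percentile, and numbers in brackets are probes with values. In unamplified RNA the lost late probes (median 0.85) lie between all probes and the kept late probes (median 1.43), and the gained late probes (median 0.15) lie close to all probes.

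The classes were also chosen by fold alone on replicate 1 of both regimes and looked at on replicate 2, and the reverse. Late losses met the same fold limits on the other pair of slides for 54.4% and 48.5% of probes and early losses for 36.0% and 43.1%. Late gains did so for 11.8% and 37.3% and early gains for 6.71% and 37.3%, where the lower value is from probes chosen on replicate 1. Both pairs share the same 90%-late preparations, so these shares say nothing about a new amplification of the late sample.

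Among the genes of seed filling, every difference that passed the test was towards early, which here means a smaller late ratio. Of all probes 7.23% were called towards early. Called differences were common among late probes in general: 958 of the 2037 that were 2-fold late in IVT had one, in either direction. The counts below are therefore not particular to these genes. Of 12 listed seed storage proteins 3 had a named probe with values, and 2 of them fell. PAP85, a vicilin-like storage protein, had ratios of 4.25 and 3.96 after IVT and 1.48 and 1.49 after 2IVT (difference -2.62 ± 0.24 SE, limma adjusted p = 8.78e-05). Of 12 oil body proteins 4 were measured and 3 fell, with a median of 2.84 after IVT and 1.24 after 2IVT. The oleosin AT3G01570, which coats oil bodies, had 3.21 and 2.83 against 0.70 and 0.64 (-2.35 ± 0.17, limma adjusted p = 2.21e-05), and AT2G25890 had 2.32 and 2.75 against 2.41 and 2.47 (adjusted p = 0.811). The latter was thus as late after 2 rounds as after 1 within the spread of its slides. All genes measured in both lists were higher in 90%-late siliques in both regimes.

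LEA proteins protect the drying seed, and 17 of the 30 listed genes were measured. The difference fell for 9 and rose for none. Of all probes 7.23% were called towards early, while 958 of the 2037 probes that were 2-fold late in IVT had a called difference. The second share is no like reference for all 17 genes. Among them AT3G53770, M17, AT5G53260 and COR47 were under 2-fold late after IVT (means 0.05, 0.61, 0.41 and 0.44). None of these had a called difference, and all 9 called genes were 2-fold late in IVT. The median ratio was 2.76 after IVT and 1.93 after 2IVT, where all probes had -0.08 and -0.04. AT3G15670 gave 6.39 and 5.39 after IVT and 3.0 and 2.69 after 2IVT (-3.05 ± 0.32 SE, limma adjusted p = 0.0002). The gene symbol LEA gave 4.85 and 4.83 against 2.48 and 2.77 (-2.21 ± 0.21, adjusted p = 9.42e-05). AT4G36600, at 1.95 and 2.04 against 2.36 and 2.35, and AT2G42560, at 2.94 and 3.42 against 2.92 and 3.15, did not pass the test. Only AT1G72100 met the rule for a loss.

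The vacuolar processing enzymes, proteases that mature storage proteins in the vacuole, had all 4 genes measured. ALPHA-VPE fell from 5.16 and 5.01 to 2.78 and 2.64 (-2.37 ± 0.15 SE, limma adjusted p = 1.66e-05). BETA-VPE fell from 3.6 and 3.61 to 2.69 and 2.88 (adjusted p = 0.0257) and GAMMA-VPE from 0.73 and 0.76 to 0.08 and 0.04 (adjusted p = 0.0106). DELTA-VPE gave 0.24 and 0.25 against 0.07 and 0.05 and did not pass. Of 11 seed maturation regulators EEL and BZIP53, both bZIP factors, were measured, and EEL fell from 3.49 and 3.63 to 2.23 and 2.41 (adjusted p = 0.00325). In the seed coat mucilage list, AT3G50990, a peroxidase, fell from 5.51 and 5.53 to 3.46 and 3.56 (adjusted p = 8.78e-05). ADPG1, a polygalacturonase of the valve margin where the pod opens, fell from 4.07 and 3.82 to 2.08 and 1.82 (adjusted p = 0.000174), and SPT and ALC of the same list, both bHLH factors, did not pass. BETA-VPE no longer passed without IVT replicate 1 (difference -0.83), IVT replicate 2 (-0.82) or 2IVT replicate 1 (-0.73), nor did GAMMA-VPE without IVT replicate 1 (-0.70) or 2 (-0.67).

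The IVT ratios were also first multiplied by the overall slope of 0.684, which takes out the average loss. Only the 3 members of each list with the largest difference were followed in this setting. Among those with a called difference, it turned to 0.32 for BETA-VPE and was no longer called for AT1G03890, AT1G48990, LEA, GAMMA-VPE, EEL, AT3G50990 and ADPG1. The other called LEA genes were not followed, and of these AT3G17520, AT5G44310 and LEA4-5 kept more than 0.684 of their IVT ratio. With the IVT ratios so multiplied, 78 of the 271 lost late and 33 of the 377 lost early probes still met the rule.

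**Figure D4:**
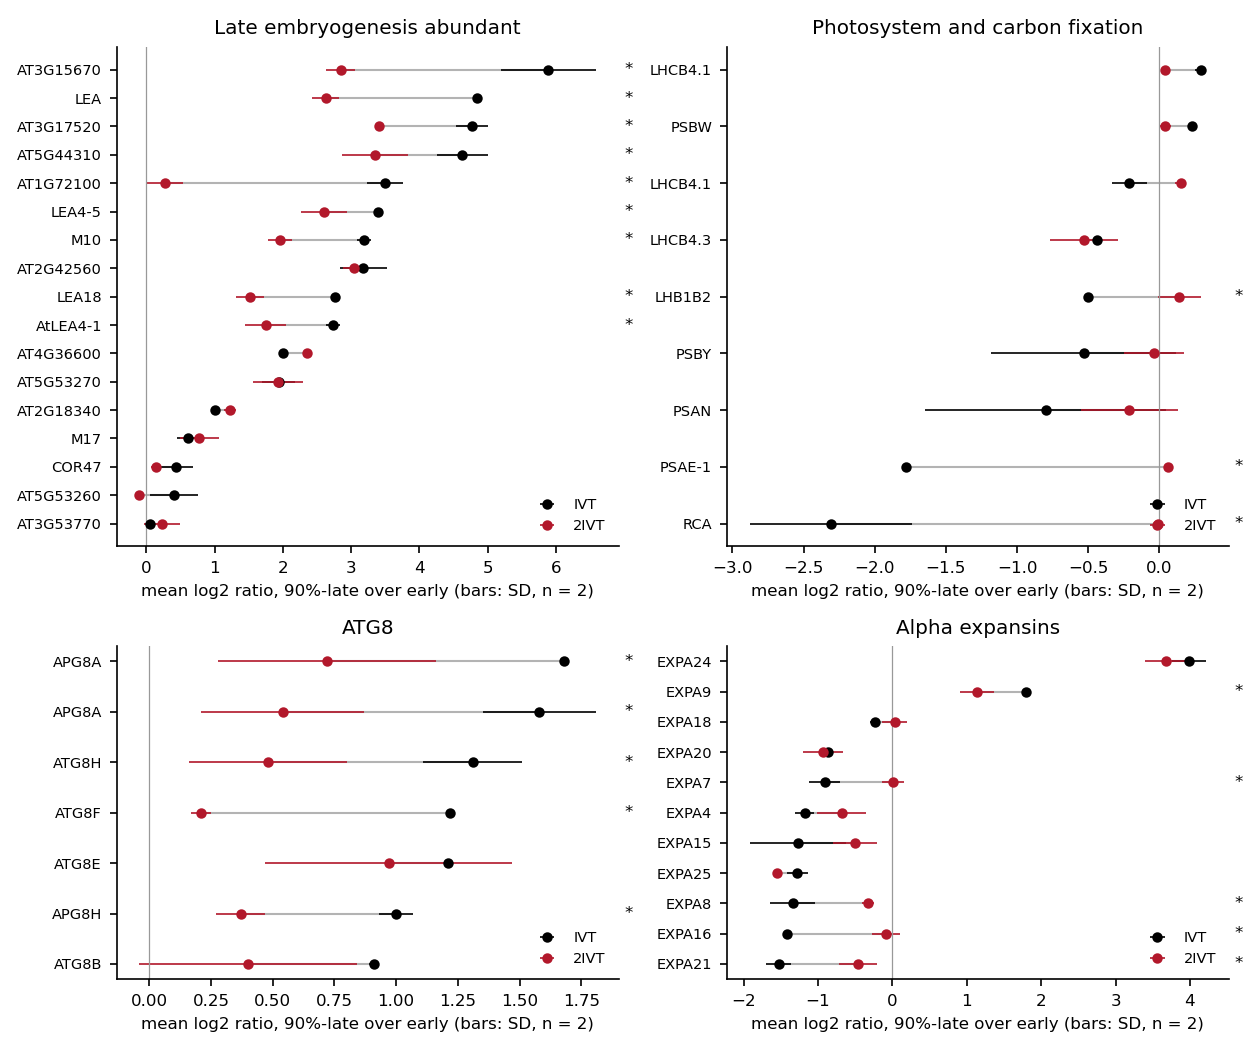
Mean log2 ratio of 90%-late over early siliques after IVT (black) and 2IVT (red), with SD bars over 2 slides, for 17 LEA genes, 9 photosystem and carbon fixation probes, 7 ATG8 probes and 11 alpha expansins; an asterisk marks a difference with adjusted p under 0.05. The marked LEA and ATG8 probes and RCA and PSAE-1 lie nearer to 0 after 2IVT, while unmarked LEA genes such as AT4G36600 (means 2.00 and 2.36) do not.

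Genes of the photosystems and of carbon fixation, which the green pod wall and the young embryo use, were given by 9 probes for 8 of 46 listed genes. Their median was -0.50 after IVT and 0.04 after 2IVT. The difference was towards late for 3 probes, RCA (2.30 ± 0.24 SE, limma adjusted p = 0.000174), PSAE-1 (1.84 ± 0.14, adjusted p = 3.16e-05) and LHB1B2, a chlorophyll-binding protein of the antenna, from -0.51 and -0.48 to 0.24 and 0.04 (adjusted p = 0.0303), and towards early for none. Of all probes 7.06% were called towards late. Called differences were more common among early probes: 578 of the 1861 that were 2-fold early in IVT had one, in either direction. That share is no like reference for all 9 probes either, since some, such as LHB1B2, were under 2-fold early in IVT. LHCB4.3 gave -0.42 and -0.45 against -0.36 and -0.70 and did not pass. LHB1B2 no longer passed without IVT replicate 1 (difference 0.62), IVT replicate 2 (0.65) or 2IVT replicate 1 (0.53).

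In the flavonoid list, BAN, the anthocyanidin reductase that makes the tannin units of the young seed coat, rose from -1.53 and -1.37 after IVT to 0.08 and 0.06 after 2IVT (1.52 ± 0.15 SE, limma adjusted p = 0.000109). Its early ratio was lost in the second round. Unamplified RNA gave -0.37 and -0.30, nearer to 2IVT than to IVT. DFR and CHIL, an earlier step and a helper of the same pathway, did not pass, and CHIL was early on both pairs of slides, with means of -0.90 after IVT and -1.03 after 2IVT. The list had 3 of 19 genes measured.

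Of 17 listed endosperm genes 7 were measured and 1 passed, a share like the 14.3% of all probes. It was EXPA21, an expansin, from -1.65 and -1.41 to -0.28 and -0.65 (1.06 ± 0.18 SE, limma adjusted p = 0.00305). AT5G46950 stayed early at -1.72 and -1.44 against -2.14 and -1.72, and AGL62, a MADS factor that holds back endosperm cellularization, at -1.12 and -1.22 against -1.0 and -0.70, and neither passed. PHE1, another MADS factor of the endosperm, gave -0.50 and -0.67 against -0.67 and -0.27. Of 20 genes that the study's text names, 5 were measured, BAN, EXPA21, AT5G46950, PHE1 and AT2G41000, and only BAN and EXPA21 passed.

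Core histones had 18 of 40 listed genes measured, and 2 fell, where 7.23% of all probes were called towards early: the H2B gene HTB11 from 0.09 and 0.47 to -0.63 and -0.30 (adjusted p = 0.0228) and AT3G09480 from 0.69 and 0.74 to -0.06 and 0.28 (adjusted p = 0.0372). None of the 3 measured lipid transfer proteins passed. Among pollen markers, a cell type that siliques could carry, 1 of 4 measured genes passed, where 7.06% of all probes were called towards late. It was VGD1, a pectin methylesterase, from -0.51 and -0.29 to 0.65 and 0.12 (adjusted p = 0.0242). The list's medians were -0.11 and 0.31, and 4 genes are too few to set against the share of all probes. AT5G60390, the 1 measured reference gene of 7, gave -0.38 and -0.08 after IVT and -0.79 and 0.04 after 2IVT. HTB11 no longer passed without IVT replicate 2 (difference -0.55) or 2IVT replicate 1 (-0.58), and VGD1 without IVT replicate 1 (0.67), IVT replicate 2 (0.90) or 2IVT replicate 1 (0.52). No gene of fatty acid synthesis, cell cycle or secondary wall cellulose synthases had a named probe with values.

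A few families were looked up by symbol after their values had been seen, and are described without a test. ATG8 proteins, which mark the membranes of autophagy, were late after IVT for each of 7 probes of 6 genes, beside 23.4% of all probes. Their median was 1.22 after IVT and 0.48 after 2IVT. The probes of APG8A gave 1.69 and 1.68 and 1.41 and 1.74 after IVT, and 0.41 and 1.03 and 0.30 and 0.78 after 2IVT, so that 2 probes of the same gene moved alike. ATG8F gave 1.20 and 1.23 after IVT, 0.24 and 0.18 after 2IVT, with 1.02 and 1.07 unamplified. ATG8E stayed late on both 2IVT slides at 0.62 and 1.32.

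Alpha expansins loosen the cell wall during growth, and 11 of them had a median of -1.18 after IVT and -0.33 after 2IVT. EXPA16 gave -1.43 and -1.40 after IVT, -0.23 and 0.04 after 2IVT, with -1.15 and -1.30 unamplified. EXPA8 gave -1.13 and -1.55, then -0.38 and -0.27, and -1.90 and -1.98 unamplified. EXPA25 stayed early, at -1.38 and -1.18 against -1.52 and -1.57, and EXPA24 stayed late, at 3.82 and 4.16 against 3.48 and 3.88. EXPA9 also stayed late but fell, from 1.79 and 1.79 to 1.3 and 0.98. By the rules, the early difference was thus lost in 3 of the expansins (EXPA8, EXPA16 and EXPA21) and kept in EXPA25. EXPA21 was still called early after 2IVT, with a mean of -0.46. Other early expansins met neither rule. EXPA20 had means of -0.86 after IVT and -0.93 after 2IVT. EXPA4, EXPA7 and EXPA15 went from -1.18, -0.91 and -1.27 to -0.68, 0.01 and -0.50. Of all probes 1.71% were lost early and 4.01% kept early, and of the early probes of IVT 24.7% were under 1.5-fold after 2IVT.

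SWEET sugar transporters, which release sugars towards the seed, were given by 13 probes of 12 genes. SAG29, a late SWEET of the seed, had 3.51 and 4.75 after IVT, 1.84 and 0.74 after 2IVT, with 6.03 and 6.16 unamplified, so that it resembled SWEET11 in direction but stayed late. SWEET13 gave 3.37 and 3.43 against 2.54 and 2.69, and SWEET10 1.43 and 1.47 against 1.20 and 1.15. Of 4 defensins the nearly identical PDF1.2, PDF1.2c and PDF1.3 had IVT ratios of 2.63 to 3.81 and 2IVT ratios of 0.00 to 1.32, while their unamplified ratios were between -0.33 and 0.43. Cross-hybridization between these copies was not tested.

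UGT glycosyltransferases, which attach sugars to hormones and phenolics, were given by 47 probes with medians of 0.26 and 0.30. Of these 5 were lost late, 2 were lost early and 7 were kept late, where all probes had 1.23%, 1.71% and 6.09%. UGT71B5 gave 1.16 and 1.48 after IVT and 0.05 and 0.06 after 2IVT, and UGT73B1 1.06 and 1.06 against 0.10 and -0.02. UGT76C2, which acts on cytokinins, gave -1.26 and -1.24 against 0.09 and -0.45. UGT73C2 at 3.6 and 3.61 against 2.16 and 2.05 was smaller after the second round but stayed late, and UGT84A4 was more late, at 0.56 and 0.67 against 1.62 and 1.21.

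The strongest stage differences that both regimes shared set the scale for these losses. FOLB3, an enzyme of folate synthesis, gave 6.67 and 6.65 after IVT and 4.72 and 4.80 after 2IVT, and AT1G28590 gave 5.24 and 5.19 against 4.15 and 4.19. AOP3, a dioxygenase of glucosinolate synthesis, gave 5.03 and 5.31 against 4.32 and 4.56, AT1G31670 gave 5.37 and 5.22 against 4.29 and 5.21, and the lipid transfer protein AT5G55410 gave 5.07 and 4.86 against 4.28 and 4.92. In the last 3 the difference between the regimes did not pass the test. On the early side AT1G66870 (-2.96 and -2.58 against -2.85 and -2.82), AT1G70270 (-2.68 and -2.61 against -3.09 and -2.27), AT3G10720 (-2.72 and -2.58 against -2.70 and -2.54), RXF26 (-2.63 and -2.90 against -2.62 and -2.44) and AT3G50560 (-2.45 and -2.67 against -2.69 and -2.33) gave nearly the same ratio in both. These genes were chosen for a large ratio in the weaker regime, which favours those with little loss.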

How the data were processed

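Silique RNA was hybridized to 2-colour long oligonucleotide arrays, 2 slides in each of 4 regimes. The log2 ratios, 1 for each probe and slide, are those the authors deposited, normalized within each slide by elements of SNOMAD (global mean, local mean across the surface, local mean across intensity). Whether background trimming, interpolation and saturated spot replacement had been applied is not stated, and the log2 scale and direction were inferred from the values, dyes and design. The sign was turned and nothing else was normalized. Each slide held 22733 to 24403 values, and intensities were not used, so the depth behind a ratio is unknown.

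Regime means and their difference were tested with limma 3.58.1 in R 4.3.3 (lmFit and eBayes, all 8 hybridizations; the prior had 6.838 degrees of freedom). P-values were adjusted by Benjamini-Hochberg over 21988 probes, with a threshold of 0.05. Probes were named through the platform annotation and RefSeq TAIR10.1 (14533 probes matched, 14275 loci; 12085 tested probes had a symbol), and 145 genes had several probes, which were kept apart. Python 3.11.15, numpy 2.4.6, pandas 2.3.3 and matplotlib 3.10.9 were used. Simulated data of 21988 probes held 50 probes each at 1.5-fold, 2-fold, 4-fold and 8-fold. Of these 36%, 94%, 100% and 100% were called, and 1 of 21788 unchanged probes. These shares describe the simulation and are not error rates of the calls on the measured data. The unchanged probes had equal ratios in both regimes, without the average loss of the measured ratios (slope 0.684). Whether the simulated spread resembles that of the measured probes was not tested, nor was an effect of the late preparation shared by both slides.

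The members, lists and rules were chosen with earlier results of these data known. Genes named by rule are the 8 with the largest difference in each class, up to 5 turned probes a direction, 5 kept probes a direction by the weaker regime, the 3 list members with the largest difference, and genes the study's text names; others are said to be picked after their values were seen. Alternatives changed the slides, centring, scaling, filter, weights, block and fold limits. Same-numbered slides of IVT and 2IVT did not deviate together (correlation -0.0274), so replicate numbers were not used as pairs.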

Additional observations from a re-analysis of the deposited data

Results flagged for a closer look

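A few probes had stage differences of 1.5-fold or more in opposite directions after IVT and 2IVT, with both slides of a regime on the same side, and are given for that reason. They numbered 6 from late to early (0.0273% of probes tested) and 6 from early to late (0.0273%), and 5 of them had a symbol. AT1G14970 went from 0.51 and 0.77 to -1.28 and -0.84, a difference of -1.70, and gave -0.10 and -0.34 unamplified. AT5G08500 went from 0.65 and 0.59 to -0.97 and -0.96, a difference of -1.58, and gave 0.28 and 0.32 unamplified. AT5G23680 went from 0.51 and 0.76 to -0.24 and -0.96, a difference of -1.23, which was no longer called without IVT replicate 2 (-1.11). In the other direction AT1G52800 went from -1.22 and -1.38 to 0.97 and 0.42, a difference of 2.00, and gave 0.38 and -0.09 unamplified. AT1G10090 went from -0.99 and -0.85 to 1.07 and 0.38, a difference of 1.64. Early-to-late turns numbered 43 without 2IVT replicate 2 and 4 without 2IVT replicate 1. The differences between the regimes passed the test of the fit across all probes, but the probes were chosen by them.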

How the results depend on the processing

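Losses moved most with the scaling of the ratios, and the count of differing probes and the gains moved most when 1 slide was left out. With the 4 hybridizations alone, 2058 probes differed (967 towards late) and 49 gained an early difference. With a common median absolute deviation 1132 differed (445 towards late, 687 towards early), 149 lost a late and 92 an early difference, and 3 turned from late to early. With IVT ratios multiplied by the overall slope 1425 differed (681 and 744), 78 lost late, 33 lost early, 89 gained late, 141 gained early, 2 turned late to early and 3 early to late. Centring on the median gave 1334 towards late and 1802 towards early. A limit of 2-fold in place of 1.5-fold gave 414 lost late, 73 gained late and 0 turned in either direction. The narrower limit tried (0.322 on the log2 scale) gave 151 lost late, 18 gained late, 201 lost early, 41 gained early and 35 and 71 turned. Stage differences of 1.5-fold with that narrower limit gave 101 gained late, 649 lost early, 158 gained early and 35 and 71 turned. The slope was 0.777 as a ratio of SDs.

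Leaving out each replicate gave 922 to 4649 differing probes (350 to 2407 towards late, 572 to 2242 towards early), 166 to 300 lost late, 172 to 452 lost early, 17 to 161 gained late, 20 to 265 gained early, 4 to 15 turned late to early and 4 to 43 early to late. The lone slide is assumed to vary like the other regimes, and fewer slides alone lower the counts. The slope had no value without an IVT replicate. With the replicate number as a block, without evidence that it pairs the slides, 2853 probes differed (1395 and 1458), with 266 lost late and 364 lost early, and no gene named by rule changed its call.

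Among genes named by rule, 7 were marked as turned in direction, all with the IVT ratios multiplied by the slope. The difference then was 0.21 for FOLB3, 1.13 for AT1G31670, 1.20 for AT5G55410, 0.91 for AOP3, 0.61 for AT1G28590, -0.64 for RXF26 and 0.32 for BETA-VPE. These are not all changes of sign: differences that had not passed the test, such as those of AT4G36700 and SPT, also change sign under that multiplication. Of the 83 probes named by rule, 12 lost their call with that setting, 9 with the common deviation, 5 with the 4 hybridizations alone and 1 to 12 without a replicate. The genes that turned lost less than the average, as that setting is built. For other changes the cause was not tested.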
